A study of Mus musculus with 128 samples.

Results

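Liver gene expression of BALB/c mice was compared with that of C57BL6/J mice 12 h after a meal taken with plain water. The comparison holds all libraries that the labels give to these strains, this drink and this time, which were 5 BALB/c and 5 C57BL6/J libraries. These 10 make up 2 of the 26 groups of the series and stand beside 118 other libraries. Both groups were wild-type males of inbred lines, obtained from the Jackson Laboratory at 8 weeks of age. All were trained for 1 week to eat chow between 7 pm and 10 pm, and were then fasted for 21 h. Drinking water was withheld from 4 pm, chow and water were given at 7 pm, and livers were taken at 7 am. The chow had 10% of its calories from fat and 64.5% from carbohydrate, and whether it was removed before the livers were taken is not stated. The substrain of BALB/c is not given in the labels. The protocol reads as 1 mouse per library, though no label states it, and the tests weigh differences against the spread among libraries.

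C57BL6/J and BALB/c are among the most used inbred laboratory strains. They carry different haplotypes of H2, the mouse major histocompatibility complex, whose class I and class II proteins present peptides to T cells. C57BL6/J also carries a known deletion in Nnt, the gene of a mitochondrial enzyme that forms NADPH. The mouse reference genome was assembled from C57BL/6J, so reads from the other strain meet more mismatches where the genomes differ; whether fewer BALB/c reads were aligned was not tested. In the liver, the hours after a meal are also those in which sterol and fatty acid synthesis, glycogen storage and the circadian clock pass through their daily course.

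The total count per library was 19805204 to 33773742, and mitochondrially encoded genes took 3.68% to 12.83% of it. All 10 hepatocyte markers were detected at high levels, with a sum of 82522 to 124143 CPM (read counts relative to the scaled library size) in C57BL6/J against 55159 to 110754 CPM in BALB/c. By edgeR 0 of the 10 passed the test of the strain difference at an adjusted p of 0.05, 0 had an unadjusted p under 0.05, and DESeq2 called 0. The strain labels were checked on 200 genes by a score that is 0 for a typical C57BL6/J library and 1 for a typical BALB/c library. It was 0 to 0.09 in the C57BL6/J libraries and 0.92 to 1.01 in the BALB/c libraries. Nnt gave 40.4, 48.8, 49.9, 39.7 and 43.1 CPM in C57BL6/J replicates 1 to 5, and 63.6, 171, 130, 115 and 137 CPM in BALB/c. The groups did not overlap, at 44.4 ± 4.74 CPM (SD, n = 5) against 123 ± 39.0 CPM, and the log2 difference was 1.47 ± 0.18 (SE, edgeR adjusted p = 2.58e-11). The annotation holds a second entry of the same name, so Nnt reads that were not unique could have been split.

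BALB/c replicate 1 stood apart from the other libraries. On the third principal component it scored 81.4, against -43.9 to 21.2 in the other 9 libraries. Its deviation profile correlated with the profile of 0 h livers, taken after the fast, at r = 0.30 and with that of 12 h livers at r = 0.23. The other BALB/c libraries gave -0.12 to 0.03 with 0 h and 0.22 to 0.49 with 12 h. These correlations are across genes of one liver set and describe the libraries only. Igfbp1, an insulin-repressed gene of the fasted liver, was at 1939 CPM in this library and at 15.1 to 69.5 CPM in the other 4 BALB/c libraries. Its library scaling factor (TMM) was 1.232, against 0.925 to 1.06 in the other 9 libraries. It had the lowest sums of hepatocyte markers (55159 CPM), cytochrome P450 genes (14853) and complement genes (6923). For gluconeogenesis genes its sum was the highest (12247 CPM). The part of scaling and composition in its single values was not tested. The count of a list without this library is given where it differs, and so is that without any other library that moved a count by over 1.5 times. C57BL6/J replicates 2 and 5 and BALB/c replicate 2 have a letter appended to their names whose meaning is not given. The second principal component was highest in these 3 libraries.

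In all, 2130 of 16886 genes tested differed between the strains (12.6%), of which 1159 were higher in BALB/c (6.86% of the genes tested) and 971 were lower (5.75%). A call means an adjusted p under 0.05 in edgeR's quasi-likelihood test. Of the genes called, the difference was at least 2-fold for 1220 (7.22% of the genes tested). In 1483 genes (8.78%) the 5 and 5 libraries did not overlap, 766 higher (4.54%) and 717 lower (4.25%). Both without overlap and called were 1277 genes (7.56%). Without BALB/c replicate 1 the count was 1892 of 16873 genes (11.2%), 1043 higher (6.18%) and 849 lower (5.03%), and 1679 of these were among the 2130. Among the libraries without the appended letter, 1380 genes differed, and a model of the 10 libraries alone called 1286. The median log2 difference over all genes was 0.03. The shares of 6.86% higher and 5.75% lower are the background for every list count on water at 12 h below. A list whose counts lie near them differs no more often than genes in general.

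**Figure D1:**
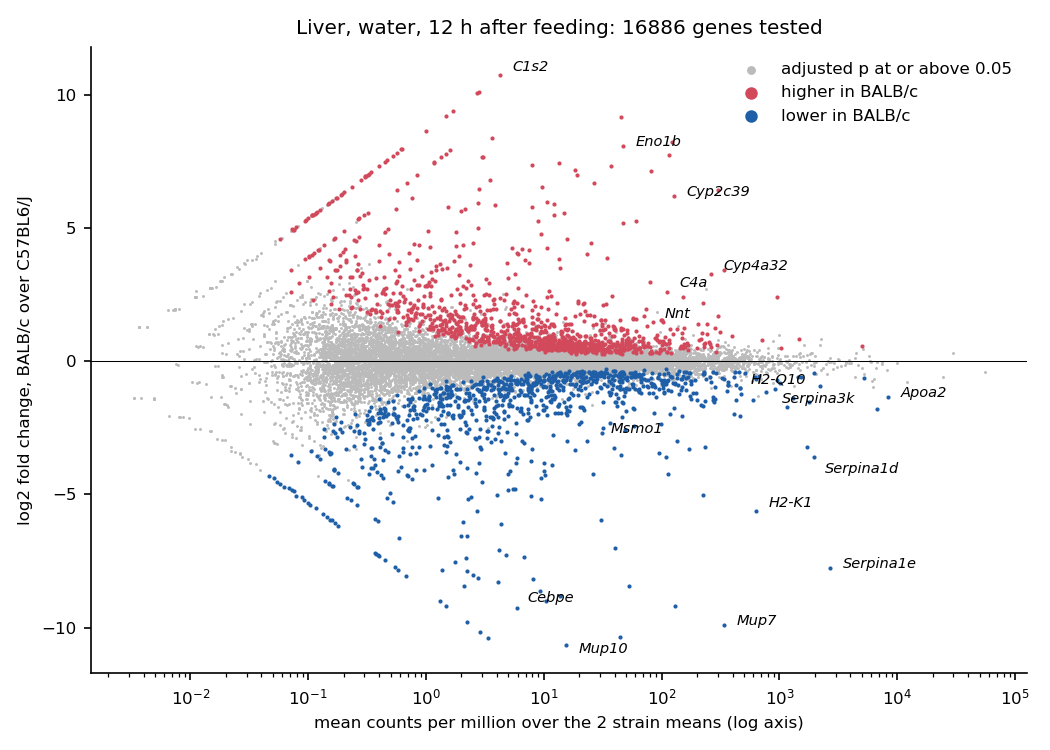
Strain difference of each of the 16886 genes tested, as log2 fold change of BALB/c over C57BL6/J (vertical axis) against the mean CPM of both strains (horizontal log axis), with the 2130 called genes coloured by direction. For genes at 0 in one strain, such as C1s2, the height is a fitted value and no measured ratio. H2-K1, Serpina1e and the Mup genes lie far below 0 and Eno1b and Cyp2c39 far above it.

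The same strain difference could be read in other mice of the series. In 28 libraries of mice that drank glucose, sucrose or fructose, killed at the same time, 5035 genes differed between the strains (29.8%). They held 1949 of the 2130 genes in the same direction, 91.5% of these and 38.7% of the 5035, and 0 in the opposite direction. On water the strains differed in 2753 genes at 0 h (16.3%), 2172 at 3 h (12.9%) and 1947 at 6 h (11.5%). Of the 2130 genes, 1339 were called in the same direction at 0 h (62.9% of these and 48.6% of the 2753). The count was 1193 at 3 h (56.0% and 54.9%) and 1240 at 6 h (58.2% and 63.7%). In the opposite direction there were 7, 4 and 0 genes. At all 3 earlier times 885 genes (41.5%) were called in the direction they had at 12 h.

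Some genes were read in one strain and almost nowhere in the other. Iqca had 754 counts over the 5 BALB/c libraries and 0 over the 5 C57BL6/J libraries, and was at least 215-fold higher in BALB/c when 0 is set to a floor of 3 counts per group. Smco2 had 868 counts in BALB/c and 3 in C57BL6/J, a ratio of 247 (95% counting interval 84.3 to 1202). In the opposite direction Cebpe, a transcription factor of the C/EBP family known from granulocytes, had 1411 counts in C57BL6/J and 2 in BALB/c, a ratio of 825 (228 to 6822). Ratios are per library size, and floors and intervals cover counting error only. Cebpe was at 16.4, 12.3, 7.52, 12.8 and 10.3 CPM in C57BL6/J, while of the 7 neutrophil markers tested 0 were called by edgeR, 0 had an unadjusted p under 0.05 and DESeq2 called 0. Without C57BL6/J replicate 3, 1 was higher.

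Other genes in this class were well detected in BALB/c. Cox6b2, a subunit isoform of cytochrome c oxidase known from testis, was at 0.397 ± 0.234 CPM in C57BL6/J against 24.2 ± 7.34 CPM in BALB/c (SD, n = 5), a log2 difference of 5.89 ± 0.43 (adjusted p = 2e-22). Ankrd55 was at 0.295, 0.228, 0.62, 0.396 and 0.165 CPM in C57BL6/J and at 58.2, 10.6, 10.6, 13.4 and 12.6 CPM in BALB/c. All 5 BALB/c values were above all C57BL6/J values, and BALB/c replicate 1 was the highest. Gucy2c, the guanylate cyclase C receptor of the gut epithelium, was at 0.273 ± 0.238 and 15.6 ± 8.07 CPM. Its log2 difference was 5.79 ± 0.63 (adjusted p = 7.23e-13).

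Several of the largest differences fell on genes with a near-identical copy, here another gene whose transcript matched at 95% identity or more over at least 50% of the length. Such reads can be assigned to either copy, and these values are uncertain. They include Eno1b, a copy of the glycolytic enzyme gene Eno1, at 0.343 ± 0.10 CPM in C57BL6/J against 93.1 ± 44.1 CPM in BALB/c. Tpm3-rs7 was at 0.31 ± 0.193 and 38.3 ± 5.6 CPM, and the histone genes Hist1h2al and Hist1h2bq at 0.16 ± 0.0942 against 27.0 ± 12.7 CPM and 0.0559 ± 0.0589 against 6.92 ± 1.93 CPM. In all 4 the groups did not overlap and BALB/c was higher. C1s2 had 1183 counts in BALB/c and 0 in C57BL6/J, at least 337-fold more, and C1rb was at 0.095 ± 0.0665 and 15.7 ± 8.45 CPM. Both are copies of complement protease genes, C1s1 and C1ra.

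The major urinary proteins (Mups) are small pheromone-binding lipocalins that the male mouse liver secretes in bulk under growth hormone. Of 18 Mup genes tested, 16 were lower in BALB/c and 0 higher, by edgeR and by DESeq2, and 0 had an unadjusted p under 0.05 in the higher direction. The background share of lower genes was 5.75%, and the median log2 difference of the 18 was -8.31 against 0.03 over all genes. Mup20, also called darcin, a male pheromone that attracts females, was at 2775, 2196, 2382, 4417 and 3590 CPM in C57BL6/J and at 78.6, 189, 611, 389 and 385 CPM in BALB/c. The groups did not overlap, and the log2 difference was -3.22 ± 0.37 (adjusted p = 3.41e-12). Mup7 was at 940, 673, 30.5, 1078 and 670 CPM in C57BL6/J and at 1.13, 1.33, 0.553, 0.112 and 0.461 CPM in BALB/c. C57BL6/J replicate 3 was far below the other C57BL6/J libraries and still above all BALB/c libraries. Mup10 had 3386 counts in C57BL6/J and 2 in BALB/c (ratio 1981, 548 to 16361), and Mup19 had 667 and 2 (ratio 390, 108 to 3228).

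Mup11, Mup12, Mup14, Mup15, Mup16 and Mup17 had log2 differences of -9.18, -8.61, -8.19, -10.34, -9.00 and -8.43, with means of 16.0 to 258 CPM in C57BL6/J against of 0.0463 to 0.453 CPM in BALB/c. Mup genes are near-identical to each other, and how their reads were divided is uncertain. The 2 members that did not pass the test were Mup3 and Mup21, and the sum over all Mup genes was 6650 to 17594 CPM in C57BL6/J against 893 to 13349 CPM in BALB/c, with the lowest sum in BALB/c replicate 1. Of the 18 genes, 16 were also lower in each of the comparisons at the earlier times and with the sugar drinks. Of 1188 windows of 2000000 bases with tested genes, the one on chromosome 4 from 60000001 to 62000000 had 22 of 25 genes called, and all 22 were lower in BALB/c.

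Serpins are inhibitors of serine proteases, and the a1-antitrypsin genes (Serpina1) and the Serpina3 genes stand in a cluster on chromosome 12. Of 26 serpins tested, 8 were lower in BALB/c and 3 higher. Serpina1e was at 3102, 5790, 5623, 7043 and 5273 CPM in C57BL6/J and at 15.6, 54.2, 16.4, 17.9 and 19.9 CPM in BALB/c. Serpina1d was at 3575, 3970, 3326, 3342 and 4082 CPM and at 273, 335, 406, 273 and 246 CPM. Both were separated between the strains, with log2 differences of -7.76 ± 0.56 (adjusted p = 1.52e-22) and -3.58 ± 0.22 (adjusted p = 1.34e-28). Serpina1a and Serpina1b differed less, by -0.94 ± 0.19 (adjusted p = 7.08e-05) and -0.64 ± 0.14 (adjusted p = 0.000356). The 4 Serpina1 genes are near-identical in sequence, and the split of reads among them is uncertain.

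Serpina3k, an inhibitor of kallikreins, was at 10577 ± 1548 CPM in C57BL6/J against 3011 ± 918 CPM in BALB/c (log2 difference -1.81 ± 0.22, adjusted p = 1.98e-11). Serpina11 went the other way, with 54.6, 29.1, 62.5, 59.7 and 36.7 CPM in C57BL6/J and 215, 147, 295, 247 and 384 CPM in BALB/c. The lowest BALB/c library was above the highest C57BL6/J library, at a log2 difference of 2.41 ± 0.32 (adjusted p = 1.96e-09).

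**Figure D2:**
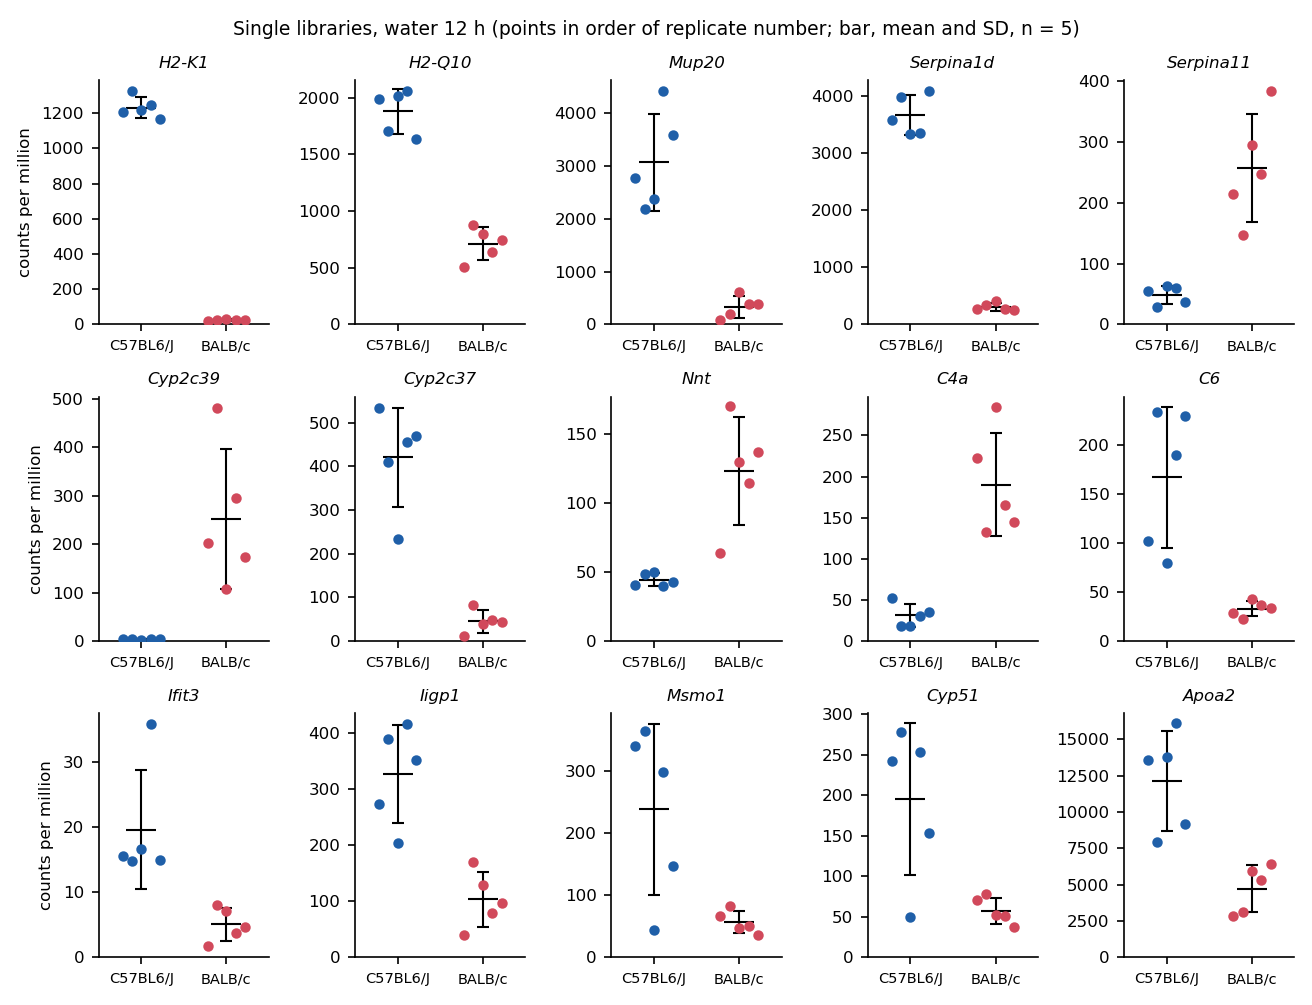
CPM of 15 genes in each of the 5 C57BL6/J and 5 BALB/c libraries, one panel per gene with axes from 0, points in replicate order and bars for the mean and SD. H2-K1, Serpina1d and Cyp2c39 show no overlap between the strains, while for Msmo1 and Cyp51 C57BL6/J replicate 3 lies among the BALB/c libraries.

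Class I genes of the H2 complex encode the heavy chains that pair with β2-microglobulin (B2m) to present peptides of the cell interior. Of 15 class I genes tested, 10 were lower in BALB/c and 2 (H2-Q1 and H2-T10) higher, with a median log2 difference of -1.17. The lower count was 9 without BALB/c replicate 1. H2-K1, the classical K heavy chain on chromosome 17, was at 1207, 1324, 1217, 1246 and 1167 CPM in C57BL6/J and at 22.2, 26.5, 30.2, 22.4 and 22.7 CPM in BALB/c. The spread within each strain was small against the gap between them, and the log2 difference was -5.63 ± 0.15 (adjusted p = 1.52e-58). H2-Q10, a class I protein secreted by the liver, was at 1987, 1701, 2017, 2059 and 1634 CPM and at 510, 877, 801, 634 and 742 CPM, and the groups did not overlap (-1.40 ± 0.17, adjusted p = 2.41e-11). H2-Q7 was at 71.2 ± 4.43 CPM in C57BL6/J against 7.48 ± 4.57 CPM in BALB/c, and H2-T22 at 89.2 ± 4.9 and 39.5 ± 9.96 CPM, both without overlap. H2 alleles differ in sequence between haplotypes, and the part of alignment in these values was not tested.

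The light chain B2m lies outside the complex, on chromosome 2. It was at 1849 ± 239 CPM in C57BL6/J against 1223 ± 418 CPM in BALB/c (-0.60 ± 0.17, adjusted p = 0.00959). This call rested on BALB/c replicate 1, at 623 CPM the lowest library, and without it the difference was -0.43 (adjusted p = 0.102). Of 12 genes of antigen processing tested, 1 was lower. Without BALB/c replicate 1 this count was 0, and without BALB/c replicate 3 it was 2. In the other comparisons 2, 3 and 2 were lower at 0, 3 and 6 h and 3 with the sugar drinks. There 7.67%, 6.88%, 5.67% and 14.8% of all genes were lower. Higher members numbered 0, 0, 0 and 1. Among 10 class II genes tested, which antigen-presenting cells use, 5 were lower and 1 higher. The lower count was 3 without C57BL6/J replicate 3 and 4 without BALB/c replicate 1. H2-Aa, a class II alpha chain, was at 19.6, 18.3, 39.5, 17.6 and 13.8 CPM in C57BL6/J and at 0.62, 1.29, 2.13, 1.2 and 2.09 CPM in BALB/c. C57BL6/J replicate 3 was the highest, and all C57BL6/J values exceeded all BALB/c values (-3.90 ± 0.44, adjusted p = 2.68e-12). H2-Ab1 was at 20.9 ± 11.5 and 3.08 ± 0.95 CPM. H2-Ea-ps is the E alpha gene, which the C57BL6 haplotype is known not to express; it had 785 counts in BALB/c and 0 in C57BL6/J, at least 224-fold more.

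Interferon-stimulated genes encode antiviral effectors and sensors, induced by interferons through a GAAA-repeat element near their start. Of 28 genes of the interferon response tested, 9 were lower in BALB/c and 0 higher. Of 15 interferon-inducible GTPases, which act against intracellular pathogens, 6 were lower and 0 higher. The medians were -0.70 and -0.89. No member of either list had an unadjusted p under 0.05 in the higher direction, and DESeq2 called 11 and 6 lower and 0 higher. The promoters of 4 lower members are shown as RefSeq gives them for GRCm38.p6, because the same short element occurs in each. Each window holds 150 bases upstream of the start, 5′ to 3′ on the strand of the gene. The windows end at the start, except that of Ifit1, which ends 18 bases before it. Capitals mark matches, on either strand, to GAAA followed by any 2 bases and again GAAA. On the strand printed they read TTTC, 2 bases and TTTC. Ifit1 is chr19:34640721-34640870 (plus strand), Ifit3 chr19:34583379-34583528 (plus), Gbp3 chr3:142559894-142560043 (plus, with 2 overlapping matches) and Trim30a chr7:104465194-104465343 (minus).
Ifit1: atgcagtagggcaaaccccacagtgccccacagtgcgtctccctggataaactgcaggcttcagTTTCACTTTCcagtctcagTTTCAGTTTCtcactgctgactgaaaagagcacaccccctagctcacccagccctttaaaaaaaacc
Ifit3: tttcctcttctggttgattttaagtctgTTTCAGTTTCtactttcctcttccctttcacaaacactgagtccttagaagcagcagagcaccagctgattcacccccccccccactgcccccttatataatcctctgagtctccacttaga
Gbp3: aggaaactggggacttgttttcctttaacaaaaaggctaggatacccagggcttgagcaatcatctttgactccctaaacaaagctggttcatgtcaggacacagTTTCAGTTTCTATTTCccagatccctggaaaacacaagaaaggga
Trim30a: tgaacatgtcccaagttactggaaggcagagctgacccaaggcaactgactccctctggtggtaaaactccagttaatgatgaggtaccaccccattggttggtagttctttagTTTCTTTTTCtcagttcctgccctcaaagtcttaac
Of the 43 tested members of the 2 lists, 26 had a promoter in the table, and 19 of these (73.1%) held the motif within 250 bases upstream of a start. Among the lower members it was 9 of 11 (81.8%). Over all 27025 genes with a promoter the share was 3.46%. A match describes the letters of the reference and not a bound site.

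Ifit1, an effector that binds viral RNA, was at 14.9, 14.8, 16.5, 43.6 and 15.8 CPM in C57BL6/J and at 0.948, 7.51, 7.44, 5.68 and 5.96 CPM in BALB/c. Ifit3, its partner protein, was at 15.6, 14.8, 16.7, 35.8 and 15.0 CPM and at 1.82, 8.06, 7.06, 3.69 and 4.65 CPM. C57BL6/J replicate 4 was the highest and BALB/c replicate 1 the lowest of the libraries for both genes, and the strains did not overlap. The log2 differences were -1.94 ± 0.38 (adjusted p = 5.38e-05) and -1.95 ± 0.35 (adjusted p = 6.37e-06). Oasl1 was at 15.3 ± 6.94 and 4.31 ± 0.403 CPM. Trim30a, a negative regulator of Toll-like receptor signalling, was at 7.22 ± 2.46 and 3.43 ± 0.826 CPM. Ifit3 has the near-identical copy Ifit3b.

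Among the GTPases, Iigp1, which attacks the vacuoles of intracellular parasites, was at 274, 389, 204, 417 and 352 CPM in C57BL6/J and at 40.7, 170, 130, 78.9 and 96.8 CPM in BALB/c. No BALB/c library reached the lowest C57BL6/J library (-1.66 ± 0.31, adjusted p = 2.05e-05). Gbp3 was at 10.0 ± 4.95 and 2.75 ± 1.33 CPM and Irgm2 at 57.8 ± 9.45 and 24.5 ± 11.2 CPM. Single libraries set how many members were called. Without C57BL6/J replicate 4 the interferon list had 5 lower members, and without BALB/c replicate 1 it had 6 and the GTPase list 3. The interferon list had 4, 1 and 4 lower members at 0, 3 and 6 h on water, and 10 with the sugar drinks. For the GTPases these counts were 6, 1, 1 and 8. Over all genes 7.67%, 6.88%, 5.67% and 14.8% were lower in these comparisons. Higher members of the interferon list numbered 1, 2, 0 and 0, and of the GTPases 0 in each. The shares of all genes that were higher were 8.63%, 5.99%, 5.86% and 15.0%. The DNA sensors of the Ifi200 family had 3 lower members and 1 higher of 6 tested. Ifi204, which has the near-identical copy Ifi211, was at 7.27 ± 1.68 and 1.91 ± 0.543 CPM. Ifi202b had 279 counts in BALB/c and 0 in C57BL6/J, at least 79.5-fold more.

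**Figure D3:**
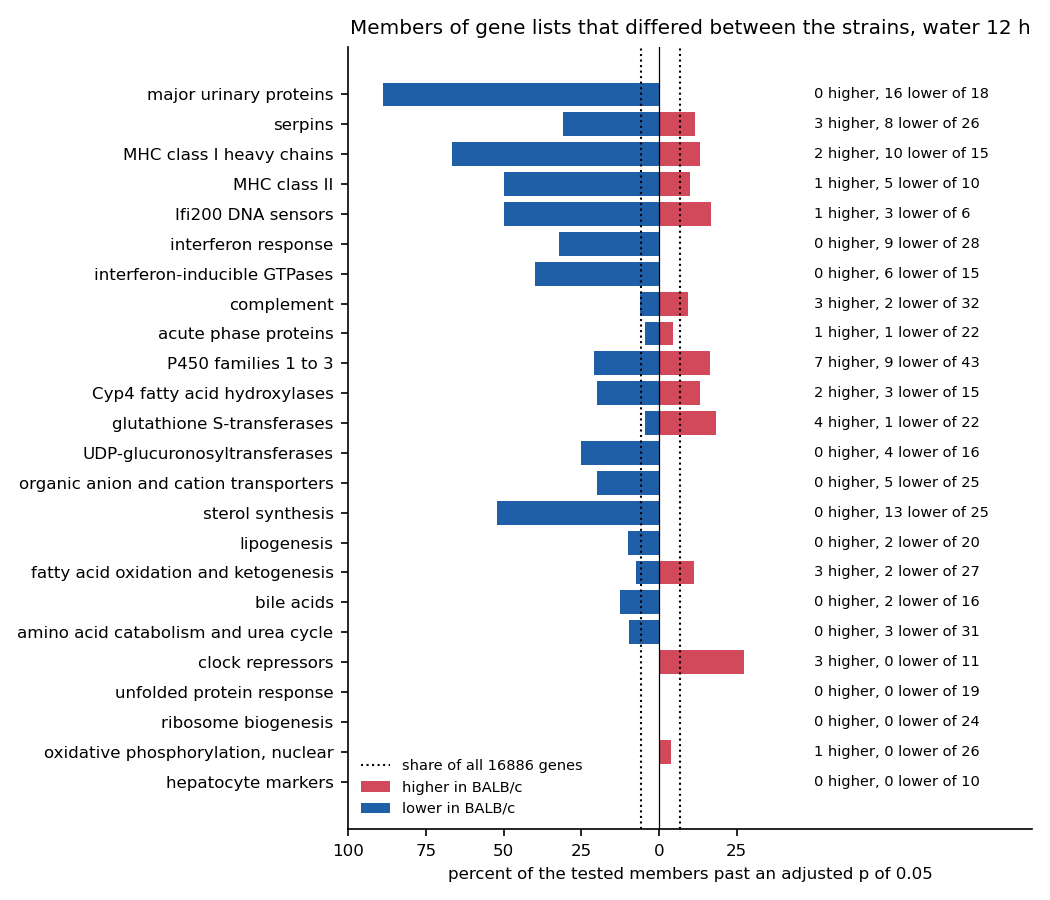
Share of the tested members of 24 gene lists that were higher (right) or lower (left) in BALB/c at an adjusted p under 0.05, in percent, with dotted lines at the shares of all 16886 genes, 6.86% higher and 5.75% lower. The Mup, class I and sterol synthesis lists have 16 of 18, 10 of 15 and 13 of 25 members lower, and the unfolded protein response and ribosome biogenesis lists have 0 in either direction at 12 h on water.

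Cytochrome P450 enzymes of families 1 to 3 oxidise drugs, steroids and fatty acids, and the Cyp2c genes form a large cluster on chromosome 19. Of 43 tested, 7 were higher in BALB/c and 9 lower, with a median log2 difference of -0.05. The 9 lower genes included 6 Cyp2c genes and the 7 higher genes 3. Cyp2c39 was at 3.04, 4.06, 2.44, 2.97 and 4.78 CPM in C57BL6/J and at 202, 481, 108, 296 and 173 CPM in BALB/c, a log2 difference of 6.18 ± 0.50 (adjusted p = 1.01e-19). Cyp2c44 went the other way, at 157, 224, 219, 217 and 199 CPM and at 7.88, 22.8, 17.8, 8.92 and 26.9 CPM (-3.59 ± 0.32, adjusted p = 3.91e-17). Cyp2c37, at 533, 411, 234, 456 and 471 CPM against 11.3, 83.1, 37.7, 47.6 and 43.3 CPM, was also lower in all BALB/c libraries. Cyp2c69 was at 27.6 ± 4.06 and 0.0616 ± 0.0474 CPM. Cyp2c37 and Cyp2c69 have near-identical neighbours in the cluster. Cyp2b13 had 110 counts in BALB/c and 0 in C57BL6/J, at least 31.3-fold more.

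The Cyp4 enzymes hydroxylate fatty acids at the far end of the chain and several are targets of PPARα. Of 15 tested, 2 were higher and 3 lower. With each library left out in turn the lower count was 1 to 4, lowest without BALB/c replicate 5. The higher count was 1 without any of C57BL6/J replicates 1 to 3 or BALB/c replicates 3 to 5. Cyp4a32 was at 40.4, 45.3, 39.5, 86.0 and 32.4 CPM in C57BL6/J and at 499, 358, 305, 563 and 639 CPM in BALB/c (3.28 ± 0.34, adjusted p = 2.77e-14). Its near-identical relative Cyp4a10 was at 666 ± 75.6 and 286 ± 118 CPM (-1.22 ± 0.41, adjusted p = 0.035), a call that was lost when any of 5 libraries was left out. Cyp4a12b was at 41.3 ± 13.8 and 5.16 ± 2.76 CPM, and its copy Cyp4a12a at 95.9 ± 47.6 and 201 ± 116 CPM. Cyp4a12b was lower in BALB/c (adjusted p = 2.43e-07). Cyp4a12a was higher (adjusted p = 0.0356), and lost the call in 6 of the 10 fits that each left out 1 library.

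Of enzymes and carriers that act after oxidation, 4 of 22 glutathione S-transferases were higher and 1 lower. Without BALB/c replicate 1 these were 5 and 0, and the lower count was also 0 without C57BL6/J replicate 5. It was 2 without C57BL6/J replicates 2 or 3 or BALB/c replicates 3 or 5. Gstm2 was at 80.4, 64.3, 55.1, 88.2 and 73.9 CPM in C57BL6/J and at 127, 191, 184, 147 and 178 CPM in BALB/c, without overlap (1.19 ± 0.22, adjusted p = 1.87e-05). Of 16 UDP-glucuronosyltransferases 4 were lower and 0 higher, and of 25 organic anion and cation transporters 5 were lower and 0 higher. DESeq2 called 5 and 5 lower and 0 higher, and 0 members of either list had an unadjusted p under 0.05 in the higher direction. Without BALB/c replicate 1, 2 glucuronosyltransferases and 5 transporters were lower, and 2 glucuronosyltransferases also without C57BL6/J replicate 2 or BALB/c replicate 4. Slco2a1, a prostaglandin carrier, was at 80.1 ± 8.98 CPM in C57BL6/J against 38.3 ± 3.71 CPM in BALB/c (-1.06 ± 0.15, adjusted p = 1.61e-08). Of 14 carboxylesterases 2 were higher and 3 lower. The lower count was 2 without BALB/c replicate 1, and the higher count 1 without C57BL6/J replicate 3 or BALB/c replicates 3 or 4. Ces1c, a secreted esterase, was at 2613, 2865, 2455, 2728 and 2573 CPM in C57BL6/J and at 216, 1644, 1187, 813 and 748 CPM in BALB/c. BALB/c replicate 1 was the lowest library, and the difference without it was -1.27 (adjusted p = 0.000452).

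Cholesterol is built from acetyl-CoA through mevalonate and squalene, and the genes of the pathway are induced together by SREBP2 when the cell is short of sterols. Of 25 genes of sterol synthesis and its control, 13 were lower in BALB/c and 0 higher, against a background of 5.75% lower. DESeq2 called 15 lower and 0 higher, and at an unadjusted p under 0.05 there were 18 and 0. The median log2 difference was -0.86 against 0.03 over all genes. Promoters of 2 lower members are shown because sterol genes are known to hold CCAAT boxes beside their SREBP sites, and capitals mark CCAAT on either strand (ATTGG on the strand printed). Mvd is chr8:122443423-122443572 (minus strand) and Hmgcs1 chr13:119690201-119690350 (plus), both 150 bases upstream of the start in GRCm38.p6 from RefSeq, 5′ to 3′.
Mvd: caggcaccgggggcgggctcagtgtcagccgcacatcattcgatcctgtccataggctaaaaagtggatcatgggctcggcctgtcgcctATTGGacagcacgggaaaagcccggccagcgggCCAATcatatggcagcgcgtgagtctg
Hmgcs1: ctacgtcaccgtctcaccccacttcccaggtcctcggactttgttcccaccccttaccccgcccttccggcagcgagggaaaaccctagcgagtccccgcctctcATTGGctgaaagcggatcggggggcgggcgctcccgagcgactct
Within 250 bases upstream, 16 of the 17 list members with a promoter in the table held CCAAT (94.1%), as did 9 of 9 lower ones and 37.5% of all 27025 genes. The match is a short and common one and describes the reference sequence only.

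By position in the pathway, Hmgcs1, which makes HMG-CoA, was at 589, 645, 108, 409 and 195 CPM in C57BL6/J and at 168, 216, 120, 134 and 137 CPM in BALB/c. Mvd, the decarboxylase that ends the mevalonate steps, was at 57.9, 44.3, 3.47, 47.7 and 13.3 CPM and at 17.3, 10.8, 6.84, 8.0 and 6.17 CPM. The strains overlapped in both genes through C57BL6/J replicates 3 and 5, of which replicate 3 was below all 5 BALB/c libraries. The log2 differences were -1.33 ± 0.36 (adjusted p = 0.00525) and -1.76 ± 0.40 (adjusted p = 0.000634).

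Further along, Sqle, which oxidises squalene, was at 80.6, 112, 9.18, 58.6 and 43.2 CPM in C57BL6/J and at 25.0, 13.1, 8.21, 9.32 and 5.21 CPM in BALB/c (-2.32 ± 0.46, adjusted p = 7.41e-05). Cyp51, the lanosterol demethylase, was at 242, 278, 50.3, 253 and 154 CPM and at 70.3, 77.7, 52.9, 50.7 and 37.4 CPM (-1.76 ± 0.37, adjusted p = 0.000135). Msmo1, the next oxidase, was at 340, 365, 44.4, 298 and 147 CPM and at 66.2, 82.3, 47.7, 51.1 and 36.3 CPM (-2.07 ± 0.38, adjusted p = 1.04e-05). For each of the 3, C57BL6/J replicate 3 fell within or next to the BALB/c range and the other 4 C57BL6/J libraries were above all BALB/c libraries. Insig1, which holds SREBPs in the endoplasmic reticulum, was at 273 ± 95.8 and 118 ± 63.1 CPM (-1.21 ± 0.31, adjusted p = 0.00288).

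In 0 of the 25 genes were the 5 and 5 libraries fully separated. With each library left out in turn the number of lower members was 9 to 16: it was 15 without C57BL6/J replicate 3 and 11 without BALB/c replicate 1. The number was 19 at 0 h, where 7.67% of all genes were lower, 4 at 3 h (6.88%) and 1 at 6 h (5.67%). With the sugar drinks at 12 h it was 23 (14.8%). Higher members numbered 0 in all 4 comparisons, where 8.63%, 5.99%, 5.86% and 15.0% of all genes were higher at 0 h, 3 h, 6 h and with the sugar drinks.

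At 12 h on water, fatty acid synthesis did not follow the same count. Of 20 lipogenesis genes 2 were lower and 0 higher by edgeR, with 3 higher at an unadjusted p under 0.05 and 1 by DESeq2. Without BALB/c replicate 1 the balance turned to 2 higher and 1 lower. With each library left out in turn, 0 to 2 were higher and 1 to 2 lower. The lower count stayed at 2 only without C57BL6/J replicates 3 or 5 or BALB/c replicate 2. In the other comparisons 7, 4 and 1 were lower at 0, 3 and 6 h and 8 with the sugar drinks. There 7.67%, 6.88%, 5.67% and 14.8% of all genes were lower. Higher lipogenesis genes numbered 0, 3, 1 and 0, beside 8.63%, 5.99%, 5.86% and 15.0% of all genes. Fasn, the fatty acid synthase, was at 212 ± 107 CPM in C57BL6/J against 131 ± 53.9 CPM in BALB/c (-0.70 ± 0.44, adjusted p = 0.354). Scd1, the stearoyl-CoA desaturase, was at 388, 846, 2433, 689 and 352 CPM and at 367, 758, 257, 84.1 and 429 CPM. The ranges overlapped, with C57BL6/J replicate 3 far above the rest (-1.31 ± 0.65, adjusted p = 0.204). Srebf1, the SREBP1 gene, was at 125 ± 29.7 and 134 ± 52.3 CPM (0.10 ± 0.27, adjusted p = 0.886).

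Fatty acid oxidation and ketogenesis had 3 higher and 2 lower members of 27, beside 6.86% higher and 5.75% lower over all genes. Eci1 and Bdh1, enzymes of mitochondrial oxidation and of ketone bodies, were at 117 ± 13.2 against 167 ± 26.1 CPM and at 83.1 ± 17.0 against 168 ± 68.3 CPM. Both were higher in BALB/c, at 0.51 ± 0.17 (adjusted p = 0.0239) and 1.01 ± 0.34 (adjusted p = 0.0292), and lost the call without single libraries. Without BALB/c replicate 1 there were 6 higher members and 2 lower, and without C57BL6/J replicates 3 or 5 or BALB/c replicates 3 or 4 there was 1 higher.

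Bile acid synthesis had 2 lower members of 16 and 0 higher, by edgeR and DESeq2, and 0 higher at an unadjusted p under 0.05. The lower count was 1 without BALB/c replicate 1 or C57BL6/J replicates 2 or 5. Cyp27a1, which opens the acidic pathway, was at 749 ± 157 and 492 ± 59.8 CPM (-0.61 ± 0.17, adjusted p = 0.00594). Cyp7a1, the rate-limiting enzyme of the classic pathway, was at 150, 262, 73.5, 88.8 and 212 CPM in C57BL6/J and at 92.5, 142, 245, 173 and 80.3 CPM in BALB/c. The ranges lay on each other (-0.10 ± 0.44, adjusted p = 0.939), as did those of Cyp8b1, the 12α-hydroxylase, at 500 ± 171 and 564 ± 222 CPM.

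Plasma proteins of the liver differed gene by gene. Apoa2, the second main protein of high density lipoprotein, was at 13564, 7968, 13775, 16151 and 9173 CPM in C57BL6/J and at 2826, 3146, 5913, 5360 and 6413 CPM in BALB/c. The groups did not overlap (-1.36 ± 0.29, adjusted p = 0.000261), and of the 18 apolipoprotein genes 2 were lower and 1 higher. The higher count was 2 without BALB/c replicate 1, and 0 without C57BL6/J replicates 1, 2, 4 or 5 or BALB/c replicates 2 or 4. Of 32 complement genes 3 were higher and 2 lower, or 4 and 1 without BALB/c replicate 1. Over all genes 6.86% were higher and 5.75% lower. C6, a subunit of the membrane attack complex, was at 102, 233, 79.8, 189 and 229 CPM in C57BL6/J and at 28.9, 22.2, 42.4, 36.1 and 33.8 CPM in BALB/c (-2.35 ± 0.31, adjusted p = 1.9e-09). C4a, known in mice as sex-limited protein, was at 52.1, 18.6, 18.5, 30.2 and 35.5 CPM and at 222, 133, 284, 165 and 145 CPM (2.61 ± 0.48, adjusted p = 1.3e-05). All BALB/c libraries were above all C57BL6/J libraries, and reads of C4a can be shared with its near-identical copy C4b.

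Of 22 acute phase proteins 1 was higher and 1 lower, beside 6.86% higher and 5.75% lower over all genes. The 2 called were the pentraxins, which went in opposite directions. Apcs, serum amyloid P, was at 127, 93.5, 93.0, 145 and 105 CPM in C57BL6/J and at 174, 337, 353, 306 and 312 CPM in BALB/c (1.39 ± 0.41, adjusted p = 0.0114). Crp, the C-reactive protein, was at 475, 565, 448, 363 and 602 CPM and at 115, 276, 313, 223 and 204 CPM (-1.12 ± 0.25, adjusted p = 0.000345). BALB/c replicate 1 was the lowest BALB/c library for both. Saa1, the acute phase serum amyloid, was at 31.3 ± 13.8 and 16.4 ± 10.7 CPM and did not pass the test (-0.93 ± 1.23, adjusted p = 0.743). It has the near-identical copy Saa2. Kng1, the kininogen, was at 2294 ± 114 and 1668 ± 221 CPM (-0.46 ± 0.13, adjusted p = 0.0082), and at -0.38 (adjusted p = 0.056) without BALB/c replicate 1.

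Iron handling had 3 higher and 1 lower of 19 members, or 2 and 1 without BALB/c replicate 1. The background was 6.86% higher and 5.75% lower. Tfrc, the transferrin receptor that takes up iron, was at 21.5, 22.5, 27.9, 34.0 and 47.6 CPM in C57BL6/J and at 161, 87.5, 62.2, 82.4 and 63.8 CPM in BALB/c (1.57 ± 0.28, adjusted p = 6.44e-06). Ftl1, a subunit of the store ferritin with near-identical pseudogenes, was at 4083 ± 441 and 5991 ± 509 CPM (0.55 ± 0.14, adjusted p = 0.0024). Hamp2, a relative of the hormone hepcidin, was at 38.1, 22.4, 152, 28.0 and 32.2 CPM and at 8.93, 11.1, 6.97, 8.22 and 12.5 CPM. For these 3 genes the strains did not overlap. Mt1, a metallothionein, was at 1196 ± 726 and 1236 ± 391 CPM (0.05 ± 0.78, adjusted p = 0.985).

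Of 13 glycogen genes 2 were higher, Phkb and Gyg, and 1 lower. Ppp1r3b, which targets protein phosphatase 1 to glycogen, was at 227, 428, 113, 244 and 276 CPM in C57BL6/J and at 11.1, 179, 96.3, 93.5 and 94.2 CPM in BALB/c (-1.44 ± 0.30, adjusted p = 0.000165). Its relative Ppp1r3g, which is not on that list, was at 57.4 CPM in BALB/c replicate 1, at 1.23 to 1.99 CPM in the other 4 BALB/c libraries and at 0.913 ± 0.579 CPM in C57BL6/J. Its call (3.78 ± 0.86, adjusted p = 0.000592) ended without that library (0.82, adjusted p = 0.642). Asns, the asparagine synthetase and a target of the stress factor ATF4, was at 2.06, 2.66, 5.17, 1.83 and 11.4 CPM and at 1.17, 0.184, 0.425, 0.727 and 0.568 CPM (-2.90 ± 0.62, adjusted p = 0.000229). Of 17 genes of the ATF4 response 4 were lower and 2 higher. The higher count was 1 without C57BL6/J replicate 4 or BALB/c replicates 1 or 4. Of the 13 mitochondrially encoded genes 1 was lower, mt-Nd3, at 83.4 ± 44.5 and 14.0 ± 7.94 CPM (-2.57 ± 0.50, adjusted p = 3.91e-05). There were 3 lower without BALB/c replicate 4 and 2 without replicate 5. The gene mt-Nd3 has near-identical copies in the nuclear genome.

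Markers of hepatocyte zones and of other liver cells were counted beside these groups. Glul, the glutamine synthetase of the pericentral layer, was at 929, 928, 442, 871 and 749 CPM in C57BL6/J and at 400, 501, 431, 591 and 527 CPM in BALB/c (-0.68 ± 0.17, adjusted p = 0.00171). Slc1a2, a glutamate carrier of the same layer, was at 129 ± 20.8 and 50.4 ± 8.65 CPM (-1.36 ± 0.17, adjusted p = 5.3e-11). In all, 3 of 12 pericentral markers were lower and 1 higher, and 2 of 10 periportal markers were lower and 0 higher. The 2 were Hal, the histidase, at 614 ± 157 and 309 ± 53.3 CPM, and Ctsc, at 68.5 ± 15.2 and 23.4 ± 10.3 CPM. Among Kupffer cell markers 1 of 9 was lower, the scavenger receptor Marco, at 5.35, 6.72, 15.0, 8.02 and 3.5 CPM against 2.59, 0.479, 0.51, 1.09 and 0.0709 CPM. The summed Kupffer cell markers were at 289 to 529 CPM in C57BL6/J against 258 to 430 CPM in BALB/c. In bulk tissue, fewer cells of a type and less RNA per cell cannot be told apart.

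Of 9 T cell markers and 7 B cell markers edgeR and DESeq2 called 0, with 3 T cell markers lower and 2 B cell markers higher at an unadjusted p under 0.05. Of the B cell markers 2 were higher without C57BL6/J replicate 3 and 1 without BALB/c replicates 1 or 2. T cell markers summed to 3.6 to 12.5 CPM in C57BL6/J against 2.41 to 4.29 CPM in BALB/c, and B cell markers to 5.41 to 49.2 and 19.8 to 50.8 CPM. Of 6 NK cell markers 2 were lower, with sums of 2.69 to 5.91 and 0.839 to 2.16 CPM. The count of lower NK cell markers was 1 without C57BL6/J replicates 3, 4 or 5 or any of BALB/c replicates 2 to 5. These cells stand beside the class II and interferon genes above, and their part in those differences was not tested. Skeletal muscle markers reached 100 CPM in BALB/c replicate 2 and at most 21.5 CPM in C57BL6/J, and 0 of 9 were called by edgeR or DESeq2 or had an unadjusted p under 0.05, while 1 was higher without C57BL6/J replicate 5. Adipose markers summed to 969 to 2401 CPM in C57BL6/J against 334 to 4267 CPM in BALB/c, and edgeR called 0 of 8, with 2 lower at an unadjusted p under 0.05 and 1 lower by DESeq2 and 1 without C57BL6/J replicate 1.

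Clock repressors close the feedback loop of the circadian clock, and Dbp and Tef are output factors that it drives. Of 11 repressors 3 were higher in BALB/c and 0 lower by edgeR, while DESeq2 called 1 lower. Of 9 output genes 2 were higher and 0 lower by edgeR, while DESeq2 called 2 higher and 2 lower, and 2 were lower at an unadjusted p under 0.05. Nr1d1, which encodes the receptor REV-ERBα that represses Arntl, was at 9.77, 6.87, 5.5, 9.31 and 8.21 CPM in C57BL6/J and at 77.8, 59.5, 15.2, 7.55 and 16.0 CPM in BALB/c. BALB/c replicates 1 and 2 were far above the rest, and replicate 4 lay in the C57BL6/J range (2.15 ± 0.39, adjusted p = 1.12e-05). Dbp was at 0.687, 0.569, 0.413, 0.594 and 0.561 CPM and at 4.6, 4.53, 1.02, 0.392 and 0.319 CPM, with the same 2 libraries high (1.93 ± 0.49, adjusted p = 0.00262). For Dbp, BALB/c replicates 4 and 5 were below all C57BL6/J libraries. Without BALB/c replicate 1 both genes were still called, Nr1d1 at 1.63 (adjusted p = 0.00123) and Dbp at 1.46 (adjusted p = 0.0476).

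Other calls of this kind ended without that library. Tef, at 52.9 ± 5.24 and 85.1 ± 49.0 CPM, gave 0.69 (adjusted p = 0.03) with it and 0.26 (adjusted p = 0.565) without it. Nr1d2 gave 0.95 (adjusted p = 0.0349) and then 0.50 (adjusted p = 0.404), and Cry2 0.53 (adjusted p = 0.0291) and then 0.16 (adjusted p = 0.671). Leaving out this library gave 1 higher and 2 lower repressors and 1 higher and 1 lower output gene. With each library left out in turn, 1 to 4 repressors were higher, the lowest number also without C57BL6/J replicate 3 or BALB/c replicate 2, and 1 was lower without C57BL6/J replicate 1 or BALB/c replicate 4. Of the output genes 1 was higher without C57BL6/J replicates 1, 2, 4 or 5, 2 were lower without C57BL6/J replicate 3, and 1 without C57BL6/J replicate 2 or BALB/c replicate 2. Arntl, the activator gene, was at 35.6 ± 4.78 and 30.5 ± 8.52 CPM (-0.22 ± 0.21, adjusted p = 0.608), and Per2 at 7.5 ± 1.1 and 11.6 ± 5.87 CPM (0.63 ± 0.35, adjusted p = 0.281).

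Several genes of sugar sensing and of the fasted state were also highest in BALB/c replicate 1. Of 19 genes of glycolysis, fructolysis and their regulator ChREBP 4 were higher and 0 lower with it, by edgeR and DESeq2, with 1 lower at an unadjusted p under 0.05, and 1 higher and 2 lower without it. Txnip, a brake on glucose uptake and a ChREBP target, was at 39.4, 48.7, 46.1, 85.6 and 35.5 CPM in C57BL6/J and at 477, 70.1, 54.5, 99.4 and 52.2 CPM in BALB/c. Rgs16, a regulator of G protein signalling and another such target, was at 12.7, 46.5, 3.68, 20.5 and 6.3 CPM and at 486, 95.6, 35.1, 73.8 and 13.7 CPM. Both calls ended without BALB/c replicate 1, from 1.56 (adjusted p = 0.00211) to 0.44 (adjusted p = 0.551) and from 2.97 (adjusted p = 0.00618) to 1.6 (adjusted p = 0.214). Lepr, the leptin receptor, went from 2.18 (adjusted p = 0.0367) to -0.19 (adjusted p = 0.929).

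Igfbp1, named above, was at 62.3 ± 38.5 CPM in C57BL6/J and did not pass the test (2.72 ± 1.07, adjusted p = 0.0809), and without BALB/c replicate 1 the sign turned (-1.07, adjusted p = 0.625). Pck1 and G6pc, which commit carbon to glucose production, were at 1573 ± 649 against 1538 ± 1015 CPM and at 219 ± 145 against 380 ± 337 CPM. Neither passed the test (adjusted p = 0.988 and 0.228), and G6pc was highest in BALB/c replicate 4, at 970 CPM. Of 16 genes of gluconeogenesis and FoxO1 targets 1 was higher and 1 lower, both with and without BALB/c replicate 1. The higher count was 3 without C57BL6/J replicate 2 and 2 without C57BL6/J replicate 5 or BALB/c replicates 3, 4 or 5. The lower count was 0 without C57BL6/J replicate 2 or BALB/c replicate 5. Fgf21, a hormone of fasting and sugar intake, was at 0.662 ± 0.352 and 2.66 ± 2.26 CPM (2.03 ± 0.75, adjusted p = 0.0578), and at 2.34 (adjusted p = 0.0255) without BALB/c replicate 1. Igf1, the growth hormone mediator, was at 651 ± 91.2 and 616 ± 91.8 CPM (-0.08 ± 0.19, adjusted p = 0.875).

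**Figure D4:**
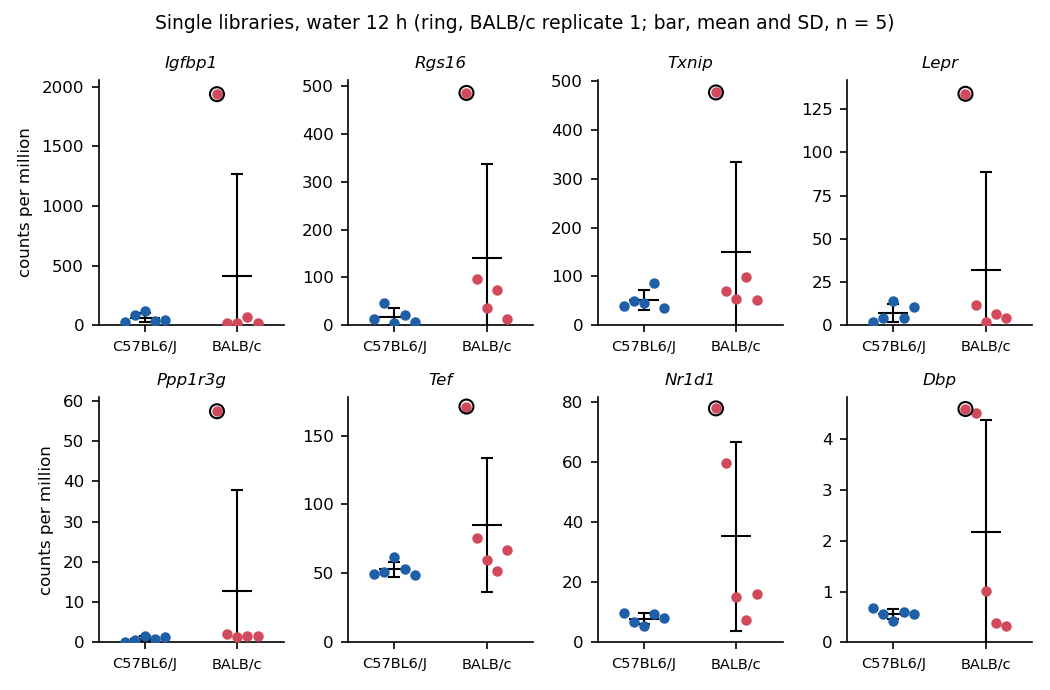
CPM of 8 fasting, sugar-sensing and clock genes in each library at 12 h on water, with the mean and SD of each strain (n = 5, lower whiskers cut at 0) and BALB/c replicate 1 ringed. The ringed library is the highest in every panel, at 1939 CPM for Igfbp1 against at most 120 CPM elsewhere, and in Nr1d1 and Dbp a second BALB/c library is also high.

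Whether the strain difference itself changed between times was tested by interaction, in which the 4 groups share no library. Against 0 h, 47 genes changed their strain difference (0.278%), 14 upward (0.0829%) and 33 downward (0.195%) in BALB/c relative to C57BL6/J. The count was 94 by DESeq2, 86 without BALB/c replicate 1 of 12 h and 4 without BALB/c replicate 1 of 0 h. Mpzl2, a cell adhesion protein, had a strain difference of 3.33 at 0 h and 0.40 at 12 h on the log2 scale, a change of -2.93 ± 0.52 (adjusted p = 0.000804). Amica1, another adhesion protein, changed by -5.93 ± 1.03 (adjusted p = 0.00079) and Fam222a by -2.98 ± 0.51 (adjusted p = 0.000733). In all 3 the BALB/c libraries of 0 h spread widely, at 50.7 to 1866 CPM for Mpzl2, 1.04 to 357 CPM for Amica1 and 3.32 to 65.0 CPM for Fam222a.

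Nr1d1 and Dbp changed upward from 0 h to 12 h, by 2.23 ± 0.54 (adjusted p = 0.0384) and 2.64 ± 0.65 (adjusted p = 0.0407). Nr1d1 had mean levels of 12.9, 4.29, 1.89 and 7.93 CPM in C57BL6/J at 0, 3, 6 and 12 h, and of 12.2, 1.66, 1.47 and 35.2 CPM in BALB/c. The BALB/c mean was thus below the C57BL6/J mean at the first 3 times and above it at 12 h. Against 3 h, Nr1d1 changed by 3.52 ± 0.57 (adjusted p = 0.000174) and was 1 of 16 genes called (0.0948%), of which 9 were upward (0.0533%) and 7 downward (0.0415%). The count was 70 by DESeq2, 4 without BALB/c replicate 1 and 0 among the libraries without the appended letter.

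Other genes called against 3 h followed different courses. Synj2, a phosphoinositide phosphatase, was higher in BALB/c at 3 h by 1.12 and at 12 h by 2.65, a change of 1.54 ± 0.31 (adjusted p = 0.0106). Its values at 12 h were 3.09, 3.91, 3.18, 2.82 and 2.14 CPM in C57BL6/J and 21.0, 19.1, 15.7, 15.5 and 23.9 CPM in BALB/c, with no overlap. Slc23a2, a vitamin C carrier, had a strain difference of -0.47 at 3 h and 0.69 at 12 h, a change of 1.16 ± 0.24 (adjusted p = 0.0129). Ikbkg, a subunit of the kinase that activates NF-κB, was at 57.2 ± 2.17 CPM at 3 h in C57BL6/J, against 123 ± 23.3 CPM in BALB/c. At 12 h it was at 97.0 ± 18.3 and 101 ± 9.57 CPM, a change of -1.05 ± 0.20 (adjusted p = 0.00543).

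Against 6 h edgeR called 0 genes, with 879 at an unadjusted p under 0.05 and 20 by DESeq2. The strain difference with sugar drinks was set against that with water at 12 h, and edgeR called 0 genes, with 378 at an unadjusted p under 0.05 and 15 by DESeq2. A change that was not called is not shown to be absent.

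**Figure D5:**
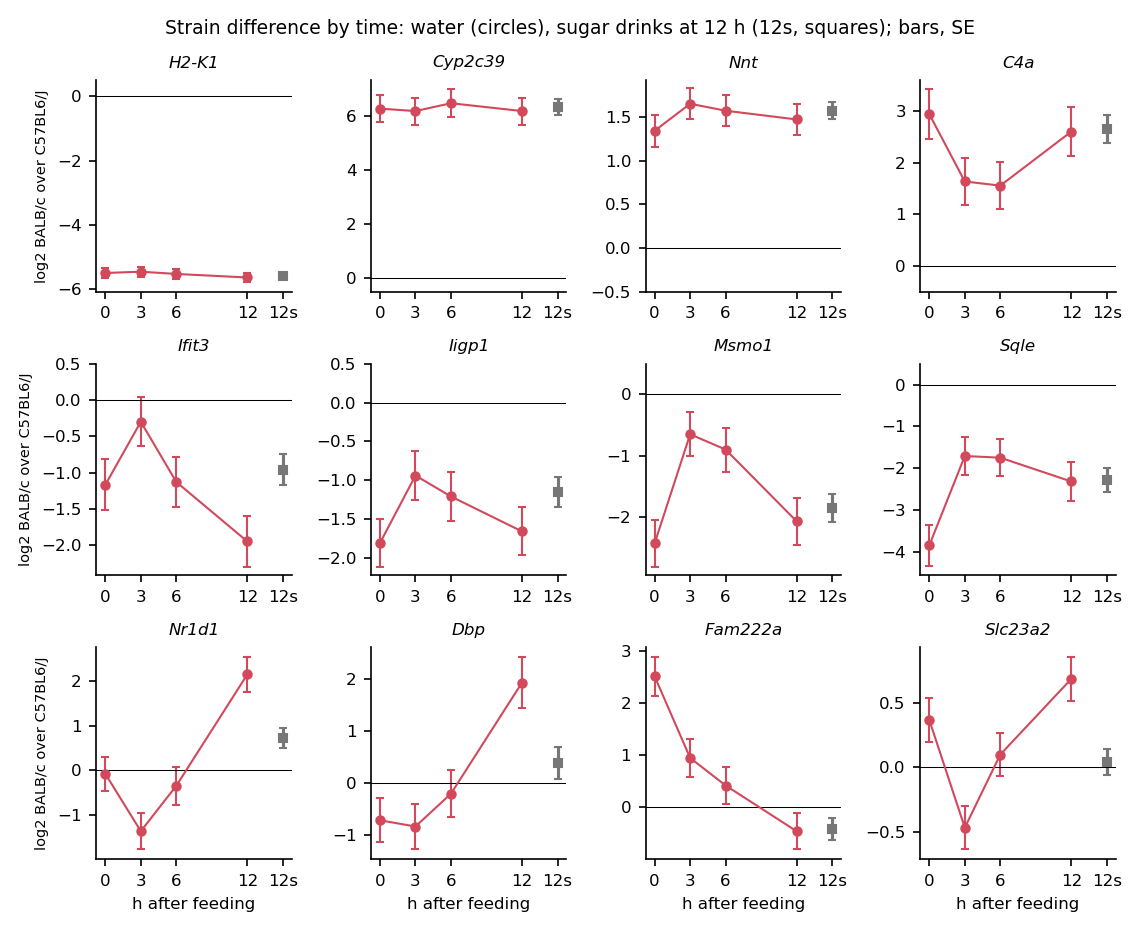
Strain difference (log2, BALB/c minus C57BL6/J, with its SE) of 12 genes at 0, 3, 6 and 12 h on water and at 12 h with the sugar drinks (12s). H2-K1, Cyp2c39 and Nnt stay on one side of 0 at nearly one level, while Nr1d1 goes from -1.37 at 3 h to 2.15 at 12 h and Fam222a from 2.52 at 0 h to -0.46 at 12 h.

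The differences of the leading genes were of much the same size in the other libraries. H2-K1 had -5.49, -5.45 and -5.52 at 0, 3 and 6 h and -5.59 with the sugar drinks, beside -5.63. Cyp2c39 had 6.27, 6.18, 6.47 and 6.32 beside 6.18, and Nnt 1.34, 1.65, 1.57 and 1.57 beside 1.47. Msmo1 varied more, with -2.43, -0.65, -0.90 and -1.85 beside -2.07, and was called at 0 h and with sugar but not at 3 h or 6 h (adjusted p = 0.267 and 0.0997). Ifit1 had -1.73, 0.05, -1.28 and -0.88 beside -1.94, and was not called at 3 h (adjusted p = 0.957). The change of the strain difference from 0, 3 and 6 h to 12 h was not called for Msmo1 (adjusted p = 0.94, 0.361 and 0.864) or for Ifit1 (adjusted p = 0.979, 0.101 and 1.0).

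Other lists had few or no members called. Of 19 genes of the unfolded protein response and 24 of ribosome biogenesis edgeR and DESeq2 called 0, with 3 and 2 higher and 0 lower at an unadjusted p under 0.05. For the unfolded protein response 1 was higher without C57BL6/J replicate 2 or BALB/c replicates 2 or 3. Of 26 nuclear genes of oxidative phosphorylation 1 was higher, and 0 without C57BL6/J replicates 2, 3 or 4 or BALB/c replicates 1 or 3. Of 31 genes of amino acid catabolism and the urea cycle 3 were lower, or 4 without BALB/c replicate 1, and 1 was higher without C57BL6/J replicate 3. At 12 h on water each of these shares was close to or under the background of 6.86% and 5.75%, apart from the 3 of 31. With the sugar drinks 13 ribosome biogenesis genes were higher and 0 lower (15.0% and 14.8% of all genes). At 0, 3 and 6 h 0 were higher and 2, 1 and 0 lower. Of the unfolded protein response 0 were higher and 11 lower at 0 h (8.63% and 7.67%). At 3 h 6 were higher and 1 lower (5.99% and 6.88%), and at 6 h and with sugar 0. For 3 the strain difference changed from 0 h (0.278%). At 12 h on water 3 of its genes were higher without overlap and 0 lower (4.54% and 4.25%). Of the amino acid genes 11 were higher and 1 lower at 0 h (8.63% and 7.67%), and for 1 the difference changed from 0 h. At 3 h and at 6 h 1 amino acid gene was higher and 3 lower (5.99% and 6.88%, then 5.86% and 5.67%). With sugar 4 were higher and 5 lower.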

How the data were processed

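Whole liver RNA (about 5 mg of frozen powder) was sequenced as paired reads of 150 bp, as the labels' protocols state. The deposited count table holds whole-number read counts per gene for 128 libraries and 35275 genes, and the submitters' processing notes name CASAVA, STAR 2.5, HTSeq 0.6.1, DESeq2 and mm10/GRCm38, with no role or order. The sources used here give no strandedness. Gene positions are those of the deposited table. Deposited FPKM tables were not used.

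Counts were fitted with edgeR 4.0.16 (robust quasi-likelihood, TMM scaling, filterByExpr, 1 mean per group) in R 4.3.3, over all 128 libraries and 26 groups, which share 1 estimate of the spread. The strain difference, its change between times and its change with the sugar drinks were contrasts of this model, with Benjamini-Hochberg adjustment over the 16886 genes tested and a threshold of 0.05. Values in the text are CPM on the TMM-scaled library sizes, with SD, and log2 differences with SE. Each SE was derived from the test, as the absolute log2 difference divided by the square root of the F statistic. The prior count of log2 CPM was 1. Simulated data with 100 genes changed 2-fold and 100 changed 4-fold, over 16568 genes tested, were used to test the script for the strain difference on water at 12 h, and 75% and 96% of them were called, with 4 unchanged genes called. Near-identical copies were searched with blastn 2.17.0 on GENCODE M21 transcripts. No unused column of per-sample values was found, and no pair of libraries of a group agreed within sampling noise (lowest chi-square per degree of freedom 44.48).

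The named genes were a panel of liver genes, up to 12 called genes per direction with the largest change, a mean of at least 5 CPM in the higher strain and no overlap, up to 5 members per list by smallest p, up to 5 genes per change between times, and 8 abundant called genes. Some of these genes are not reported here. The genes and the 66 lists were chosen with earlier results of these data known. Alternatives were DESeq2 1.42.0, DESeq2's size factors, no filter, a replicate block, the name letter as a covariate or left out, the 10 libraries alone, and each replicate or library left out. Replicate numbers were taken from the sample descriptions in the labels.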

Additional observations from a re-analysis of the deposited data

Results flagged for a closer look

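In 35 of 224 groups of 5 values (a named gene in 1 strain), 1 library lay far from the other 4, by a gap of over 0.71 of the range. Such a gap arises in about 1 in 20 groups of independent, normally distributed values. CPM need not be so distributed, the genes share the same libraries, and they were chosen with earlier results known. The number flagged can therefore not be weighed against that share. Of the 35 groups, 15 were in BALB/c replicate 1. It was the highest library for Igfbp1 (1939 CPM), Rgs16 (486), Txnip (477), Tef (171), Eno1b (169), Tfrc (161), Lepr (134), Ikbkg (118), Mpzl2 (83.2), Ankrd55 (58.2), Ppp1r3g (57.4) and Amica1 (4.3). It was the lowest for Kng1 (1288 CPM), Apcs (174) and Ifit1 (0.948).

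In C57BL6/J replicate 3, the values were highest for Mt1 (2469 CPM), Scd1 (2433), Hamp2 (152), Saa1 (55.2) and H2-Aa (39.5). C57BL6/J replicate 4 was highest for Ifit1 (43.6 CPM), Ifit3 (35.8), Gbp3 (18.8), mt-Nd3 (162), Cyp4a32 (86.0), Txnip (85.6) and Amica1 (1.19). BALB/c replicate 2 was highest for Insig1 (229 CPM), Serpina1e (54.2), C1s2 (17.2) and Cebpe (0.0736). BALB/c replicate 3 was highest for Hist1h2bq (10.3 CPM) and Mup19 (0.085), and BALB/c replicate 4 for G6pc (970 CPM) and Slc1a2 (65.5). For Cebpe and Mup19 the flagged value stands on 2 counts each, with 0 in the other BALB/c libraries.

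Among the genes named here, edgeR's interaction test called a change of the strain difference between times for 9 gene and time pairs. Over all genes it called 47 against 0 h and 16 against 3 h, and DESeq2 called 94 and 70. The 47 became 4 without BALB/c replicate 1 of 0 h. The 16 became 4 without BALB/c replicate 1 of 12 h and 0 among the libraries without the appended letter. Between 0 h and 12 h the change was 2.23 for Nr1d1, 2.64 for Dbp, -2.93 for Mpzl2, -2.98 for Fam222a and -5.93 for Amica1 on the log2 scale. Between 3 h and 12 h it was 3.52 for Nr1d1, 1.54 for Synj2, 1.16 for Slc23a2 and -1.05 for Ikbkg.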

How the results depend on the processing

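The 2130 genes called became 1380 in the libraries without the name letter, 1286 with the 10 libraries alone and 1408 with a replicate block in these 10, 1619 to 1799 without a replicate number and 1867 to 2082 without 1 library; the other settings gave 1958 to 2389, and a replicate block over all libraries 2351. Deviations of same-numbered libraries correlated at 0.129, 0.416, -0.005, 0.205 and -0.145. As 2 of these are not over 0.1, the numbers were not taken as pairs, while 3 of 5 correlated best with their own number, a hint from the data towards pairing. The change from 0 h, 47 genes, became 94 by DESeq2, 23 without a filter, 74 with the name letter as a covariate, 11 without those libraries and 2 to 68 without a replicate number. The change from 3 h, 16 genes, became 70, 40 and 0 by DESeq2, covariate and without those libraries, 31 with a replicate block and 6 to 8 without a replicate number. The change from 6 h, 0 genes, became 20 by DESeq2 and 0 to 4 without a replicate number, and the drink difference, 0 genes, 15 by DESeq2. Settings added after seeing the data left out BALB/c replicate 1 of 12 h (86, 4 and 1 genes against 0, 3 and 6 h), BALB/c replicate 1 of 0 h (4 against 0 h) and C57BL6/J replicate 2 of 0 h (53). The cause was not tested. Of 2574 fits of single genes, 2384 kept their direction and side, 138 lost and 7 gained a call, and 45 changed sign. These fits include genes that were not called. Of the 94 genes named here that were called, 67 kept the call in all 23 settings. Genes with a few counts per library are limited by depth.

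Sign changes fell on 10 genes of which 1, Lepr, was called. Without 1 replicate number or library, the log2 difference ran from -0.08 to 0.17 for Ikbkg, -1.28 to 3.41 for Igfbp1, -0.16 to 0.25 for Srebf1, -0.58 to 0.36 for Pck1, -0.55 to 0.18 for Cyp7a1, -0.22 to 0.49 for Mt1, -0.40 to 1.5 for Amica1, -0.07 to 0.38 for Cyp8b1, -0.44 to 2.90 for Lepr and -0.10 to 1.47 for G6pc. With a replicate block it was -0.04 for Mt1, and -0.62 for Igfbp1 with the block in the 10 libraries alone. With the name letter as a covariate it was 0.02 for Pck1, 0.12 for Cyp7a1 and -0.01 for Mt1. In the libraries without the letter it was -0.21 for Srebf1, 0.36 for Pck1, 0.48 for Cyp7a1 and -0.09 for Mt1.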
